A study of Mus musculus with 10 samples.

Results

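The 31 genes described here mark T lymphocytes and natural killer (NK) cells, lineages that macrophages do not belong to. They were taken as a list by name, all 31 were found among 21887 protein-coding genes placed on the mouse assembly mm10. Trimethylation of lysine 27 on histone H3 (H3K27me3) was measured over each gene by chromatin immunoprecipitation and sequencing (ChIP-seq) in bone marrow-derived macrophages. Marrow of C57BL/6 mice was cultured with macrophage colony-stimulating factor (M-CSF) at 20 ng/ml for 7 days. KO cells carried Eif2ak3 fl/fl with LysMcre, so that the gene for the stress kinase PERK was deleted where the lysozyme M promoter drives Cre, that is in myeloid cells. WT cells carried the floxed gene without Cre. M2 cells received interleukin-4 (IL-4) at 20 ng/ml for 24 h (2 KO and 2 WT libraries). M1 cells received lipopolysaccharide (LPS) at 20 ng/ml with interferon-gamma at 50 ng/ml for 24 h (2 KO and 2 WT libraries), and M0 cells received neither (1 KO and 1 WT library). The study calls the replicates biological, and how many animals stand behind them is not given in the sources used here.

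H3K27me3 is written by Polycomb repressive complex 2 and is found over genes that are held off, often those of other lineages; genes without it may be active, or silent by other means. T cells read antigen through the T cell receptor with the CD3 chains, the coreceptors CD4 and CD8 and the kinases Lck and ZAP-70. NK cells read activating and inhibitory surface receptors, and both lineages kill with perforin and granzymes. RNA was not analysed here, so cover by the mark is reported as cover and says nothing directly on expression. A mark on part of the cells and a weaker mark on all of them cannot be told apart in bulk chromatin.

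Each gene was measured over its body with 5 kb on either side, called its window. Percent cover is the share of the window under the regions that the authors called in a library. A gene was called covered at 50% or more, touched above 0% and free at 0%. Tag density is the authors' normalised tag count in those regions, shared out by overlap with the window, per 10 megatags (1 megatag is 1000000 tags) and per kb, so tags outside called regions count as 0.

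The start-site sequences of 4 genes, the 2 most and the 2 least covered of the 23 members with a RefSeq promoter, show what lies at each end of the range. They run from 250 bases before to 50 bases after the RefSeq start (GRCm38.p6, the mm10 assembly), 5′ to 3′ on the gene's own strand, with CG dinucleotides, the motif searched, in capitals; CG reads the same on both strands. Cd3e (chr9:45009562-45009861, minus strand) and Prf1 (chr10:61297586-61297885, plus strand) lay under regions in all 10 libraries, and Klrk1 (chr6:129623815-129624114, minus strand) and Themis (chr10:28668110-28668409, plus strand) in none.
Cd3e: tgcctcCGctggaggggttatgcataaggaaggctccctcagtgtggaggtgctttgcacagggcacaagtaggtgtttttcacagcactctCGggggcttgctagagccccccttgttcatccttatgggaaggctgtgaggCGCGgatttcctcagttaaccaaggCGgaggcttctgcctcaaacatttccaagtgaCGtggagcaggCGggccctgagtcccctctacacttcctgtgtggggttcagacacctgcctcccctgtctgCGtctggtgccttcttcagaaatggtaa
Prf1: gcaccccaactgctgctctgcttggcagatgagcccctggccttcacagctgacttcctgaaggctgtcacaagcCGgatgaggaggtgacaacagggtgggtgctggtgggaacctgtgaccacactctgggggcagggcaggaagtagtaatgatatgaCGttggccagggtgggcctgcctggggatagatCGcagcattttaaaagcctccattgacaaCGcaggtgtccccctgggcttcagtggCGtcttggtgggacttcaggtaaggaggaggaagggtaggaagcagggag
Klrk1: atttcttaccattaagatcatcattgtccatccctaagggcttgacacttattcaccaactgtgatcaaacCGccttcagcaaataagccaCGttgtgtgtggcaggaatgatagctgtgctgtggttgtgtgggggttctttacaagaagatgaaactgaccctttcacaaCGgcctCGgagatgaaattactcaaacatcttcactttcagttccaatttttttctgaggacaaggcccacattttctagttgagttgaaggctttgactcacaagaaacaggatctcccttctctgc
Themis: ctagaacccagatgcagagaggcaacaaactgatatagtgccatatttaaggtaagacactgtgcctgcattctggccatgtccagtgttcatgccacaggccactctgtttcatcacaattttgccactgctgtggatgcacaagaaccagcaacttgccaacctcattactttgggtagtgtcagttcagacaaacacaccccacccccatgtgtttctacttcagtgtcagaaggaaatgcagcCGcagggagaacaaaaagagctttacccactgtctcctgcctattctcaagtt
The Cd3e sequence held 8 CG dinucleotides, that of Prf1 held 5, that of Klrk1 held 4 and that of Themis held 1. At least 1 CG was present in 94.8% of 17492 RefSeq promoters of this length. At least 5, as in Prf1, were present in 70.8% of them, and Prf1 and Klrk1 differed by 1 CG while lying at opposite ends in cover.

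The libraries held 12.6 to 20.9 megatags, which give the share of tags inside regions a 95% Wilson interval of at most ±0.0267 percentage points, for counting error only. That share was 61.0% and 61.3% in KO M2, 41.3% and 56.5% in WT M2, 45.0% to 48.5% in M1, 64.1% in KO M0 and 62.6% in WT M0. WT M2 replicate 1 stood apart from the other M2 libraries in this share. It had 52.9 Mb of chromosome X under regions and WT M1 replicate 1 had 31.3 Mb, against 0.687 to 0.990 Mb in the other 8; no member lies on X. Of the 28 members with any cover in the stimulated (M2 and M1) libraries, 17 had their lowest cover in WT M2 replicate 1 alone. The matching share of all genes was not computed. Over all genes, WT M2 replicate 1 had the fewest touched of the stimulated libraries, at 8879 against 9251 to 9868 in the others. The estimated fragment length was 178 to 190 bp in the stimulated libraries, 372 bp in KO M0 and 352 bp in WT M0, so state and fragment length cannot be told apart there. M0 is compared with the other states as values only, and its 2 libraries enter the test of genotype within states. Of 16 macrophage identity genes, 11 were free in all 10 libraries (68.75%, against 43.8% of all genes).

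The T and NK genes split into 4 classes. Cd3e, Cd7 and Ikzf3 were covered in all 10 libraries (3 of 31, or 9.68% of members, against 7.51% of all genes). Another 11 were covered in some libraries (35.5% of members, against 12.0% of all genes), namely Cd3g, Cd4, Cd8a, Cd8b1, Zap70, Cd2, Tcf7, Ncr1, Prf1, Gzma and Gzmb. Then 14 were touched in at least 1 library and covered in none (45.2% of members, against 36.6% of all genes). Themis, Cd28 and Klrk1 were free in all 10 (9.68% of members, against 43.8% of all genes). The share of members always covered was thus near that of all genes, while fewer members than genes at large were always free. The mean cover over the 10 libraries had a median of 29.3% among the members and 0.601% among all genes. That median was 9.56% among 52 other T and NK genes and 4.63% among 12 B cell genes, lists described below. The members' median is therefore not that of T and NK genes at large.

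**Figure D1:**
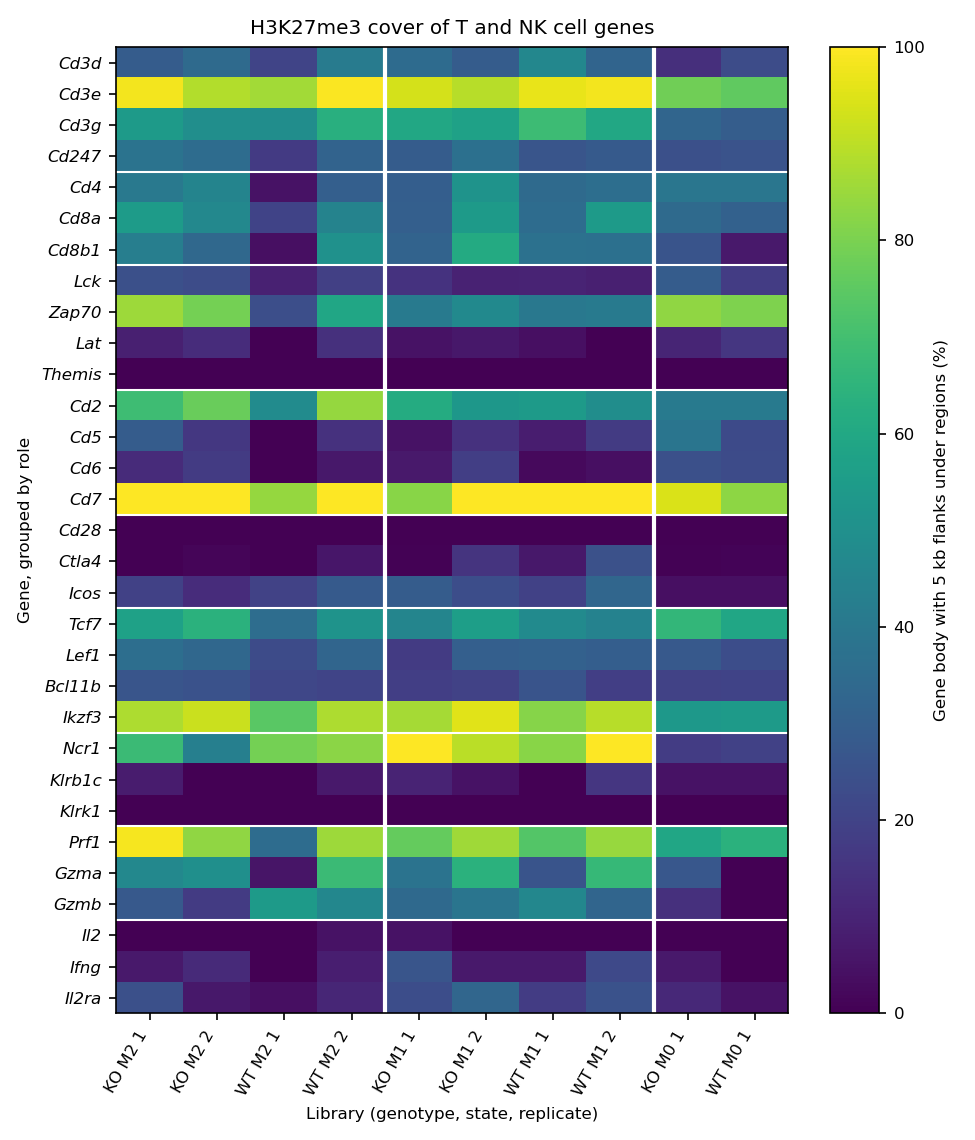
Percent of each gene's window (body with 5 kb flanks) under H3K27me3 regions, by gene (rows, grouped by role) and library (columns); colour runs from 0% to 100%. Cd3e, Cd7 and Ikzf3 are at or above 50% in every column, and the rows of Themis, Cd28 and Klrk1 are at 0% throughout.

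In single libraries the number of covered members was 10 and 7 in KO M2, 5 and 11 in WT M2, 7 and 12 in KO M1, 7 and 8 in WT M1, 6 in KO M0 and 6 in WT M0. It averaged 8.25 ± 2.75 over M2 libraries and 8.50 ± 2.38 over M1 libraries (SD, n = 4 each), a difference smaller than the spread within each state. The widest gap between 2 replicates, 5 against 11 members, was within WT M2. Of all 21887 genes, 3208 and 2990 were covered in KO M2 and 2611 and 3151 in WT M2. The counts over all genes were 2775 and 3088 in KO M1, 2985 and 2931 in WT M1, 2665 in KO M0 and 2439 in WT M0. The gap within WT M2 thus had the same direction over all genes. A list of 52 other T and NK genes gave 9 to 16 covered genes in a library, with 8 covered in all 10 (15.4%, against 7.51% of all genes). Among them were Grap2, Il2rb, Thy1, Runx3, Gata3, Tbx21 and Eomes, the last 4 being transcription factor genes of lymphoid lineages. In the same list 10 genes were free in all libraries (19.2%, against 43.8% of all genes). Sh2d1a, Cd40lg and Cxcr3, named after their values were seen, lie on X and were covered only in the 2 WT replicate 1 libraries. Among 12 B cell genes, Blk alone was covered in all 10 libraries (8.33%, against 7.51% of all genes). In that list 5 were free (41.7%, against 43.8% of all genes), so both shares were near those of all genes.

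The receptor chains of the CD3 complex, which carry the T cell receptor's signal into the cell, were touched in all 10 libraries. Cd3e, the epsilon chain (chromosome 9, 44998735 to 45009663), had 98.2% and 88.3% cover in KO M2, 86.2% and 99.2% in WT M2, 93.7% and 89.3% in KO M1, 96.5% and 98.2% in WT M1, 78.2% in KO M0 and 75.7% in WT M0. In M2 the genotypes overlapped, in M1 both KO libraries were below both WT libraries, and both M0 libraries were below all 8 stimulated ones. In 7 of the 8 stimulated libraries its cover came from a region of 51.7 to 54.8 kb, far longer than the gene's 10.9 kb; KO M2 replicate 2 had 23.3 kb, KO M0 had 11.6 kb and WT M0 had 15.8 kb. The stretch in KO M2 replicate 1 ran from 44994112 to 45048172 on chromosome 9.

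Cd3g, the gamma chain, ranged from 29.4% in WT M0 to 68.5% in WT M1 replicate 1, and Cd3d, the delta chain, from 13.6% in KO M0 to 46.2% in WT M1 replicate 1. Their windows share 8.66 kb, so their values are not independent. Cd247, the zeta chain (chromosome 1, 165779952 to 165871153), ranged from 16.9% in WT M2 replicate 1 to 37.9% in KO M2 replicate 1. The 3 coreceptor genes were each covered in some libraries. Cd8a, the CD8 alpha chain, ranged from 20.1% to 54.8% and Cd8b1, the CD8 beta chain, from 4.05% to 61.0%, each lowest in WT M2 replicate 1. Cd4 (chromosome 6, 124864693 to 124888247) had 40.6% and 45.3% in KO M2, 5.05% and 30.3% in WT M2, 29.8% and 51.4% in KO M1, 34.6% and 36.2% in WT M1, 39.4% in KO M0 and 39.3% in WT M0. In M2 both KO libraries were above both WT libraries, and in M1 the genotypes overlapped.

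Proximal signalling genes ran from covered in some libraries to free in all. Zap70, the kinase that binds phosphorylated CD3 and zeta chains (chromosome 1, 36761798 to 36782821), had 85.3% and 79.0% cover in KO M2, 24.2% and 59.4% in WT M2, 41.4% and 47.6% in KO M1, 39.9% and 40.6% in WT M1, 83.4% in KO M0 and 80.5% in WT M0. In each of the 3 states every KO library was above every WT library. Lck, the kinase that starts the signal at the coreceptors (chromosome 4, 129548344 to 129573641), had 24.5% and 23.1% in KO M2, 9.11% and 18.9% in WT M2, 14.6% and 9.73% in KO M1, 9.84% and 8.81% in WT M1, 29.0% in KO M0 and 17.7% in WT M0. The KO M2 libraries were the highest of the 8 stimulated libraries, though no library reached 50%. Lat, the adaptor downstream of ZAP-70, ranged from 0% to 15.8%. Themis, a regulator of thymocyte selection whose body spans 215 kb (chromosome 10, 28668360 to 28883820), was at 0% in every library.

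Among adhesion and scavenger-type surface receptors, Cd7 (chromosome 11, 121036747 to 121039478) had 100% cover in 6 of the 10 libraries and 82.2% to 94.3% in the other 4. Cd2, an adhesion receptor of T and NK cells (chromosome 3, 101275908 to 101287939), had 68.8% and 77.1% in KO M2, 48.4% and 84.1% in WT M2, 61.4% and 53.1% in KO M1, 54.5% and 48.9% in WT M1, 40.8% in KO M0 and 41.4% in WT M0. Apart from WT M2 replicate 1, every M2 library was above every M1 library for Cd2. Cd5 and Cd6, neighbouring genes of related receptors that dampen T cell signalling, ranged from 0% to 39.0% and from 0% to 24.6%, each lowest in WT M2 replicate 1 and highest in KO M0. Costimulatory and inhibitory receptors had little cover. Cd28, the main costimulatory receptor, was free (chromosome 1, 60746388 to 60773359). Its neighbours Ctla4, the inhibitory counterpart, and Icos, an inducible costimulator, reached at most 24.9% and 33.2%, both in WT M1 replicate 2.

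All 4 lineage transcription factor genes were touched in every library. Ikzf3, which encodes Aiolos (chromosome 11, 98464610 to 98546031), had 87.7% and 92.1% in KO M2, 74.4% and 87.8% in WT M2, 86.5% and 95.7% in KO M1, 82.0% and 89.4% in WT M1, 53.2% in KO M0 and 54.5% in WT M0. Its cover was made of 2 to 5 regions in the stimulated libraries, 13 in KO M0 and 11 in WT M0. Tcf7, which encodes TCF-1 (chromosome 11, 52246527 to 52283383), had 57.1% and 64.0% in KO M2, 35.7% and 51.5% in WT M2, 45.4% and 56.2% in KO M1, 47.8% and 44.2% in WT M1, 66.4% in KO M0 and 59.3% in WT M0. KO M2 exceeded WT M2 in both libraries, and the M1 genotypes overlapped. Lef1, the TCF-1 relative, ranged from 17.4% to 36.1%, and Bcl11b, needed for T cell commitment, from 18.5% to 26.4%, so neither was covered in any library.

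NK receptor genes ran from covered to free. Ncr1, which encodes the activating receptor NKp46 (chromosome 7, 4337715 to 4345184), had 68.3% and 43.0% in KO M2, 79.2% and 82.8% in WT M2, 100% and 89.7% in KO M1, 82.3% and 100% in WT M1, 17.97% in KO M0 and 19.4% in WT M0. Every stimulated library was above both M0 libraries, which also differ in fragment length. Klrb1c, the NK1.1 receptor, reached at most 15.7%. Klrk1, which encodes the activating receptor NKG2D (chromosome 6, 129610323 to 129623903), was at 0% in all 10 libraries.

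Of the cytotoxic effectors, Prf1, the pore-forming perforin (chromosome 10, 61297751 to 61304684), had 98.5% and 83.5% in KO M2, 35.3% and 85.2% in WT M2, 76.3% and 85.7% in KO M1, 73.1% and 84.7% in WT M1, 59.2% in KO M0 and 63.8% in WT M0. WT M2 replicate 1 was the only library under 50% for Prf1. The proteases granzyme A and granzyme B, encoded by Gzma and Gzmb, ranged from 0% to 68.2% and from 0% to 54.6%, each at 0% in WT M0. Cytokine genes and the IL-2 receptor gene were never covered. Il2, the T cell growth factor, was at 4.796% in WT M2 replicate 2, at 4.86% in KO M1 replicate 1 and at 0% elsewhere. Ifng, the gene of interferon-gamma, which the M1 cells were given, ranged from 0% to 26.5%. Il2ra, the IL-2 receptor alpha chain (chromosome 2, 11642792 to 11693194), had 24.4% and 6.61% in KO M2, 3.96% and 10.8% in WT M2, 23.7% and 33.0% in KO M1, 17.7% and 25.3% in WT M1, 11.5% in KO M0 and 4.97% in WT M0. Apart from KO M2 replicate 1, every M2 library was below every M1 library for Il2ra.

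Cover at the start site did not always follow cover of the window. The start used was the first listed RefSeq start of each gene. Within 1 kb of that start, Cd3e, Tcf7, Lef1, Bcl11b and Prf1 were fully covered in all 10 libraries. With Cd3g and Cd8a, 7 of the 23 members that have a RefSeq promoter were touched there in all 10 (30.4%, against 19.8% of 17492 genes). Lef1 and Bcl11b were thus marked at their first listed starts in every library while their window cover averaged 28.5% and 21.6%. Of the 4 listed Lef1 starts, the first 3 were fully covered in all 10 libraries and the fourth was touched in 4. Themis, Cd5, Klrb1c, Klrk1, Il2 and Il2ra had no region within 1 kb of their starts in any library (6 of 23, or 26.1%, against 63.8% of genes), and of these Cd5 and Il2ra had window cover of 16.5% and 16.2% on average that lay elsewhere in the gene or its flanks.

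**Figure D2:**
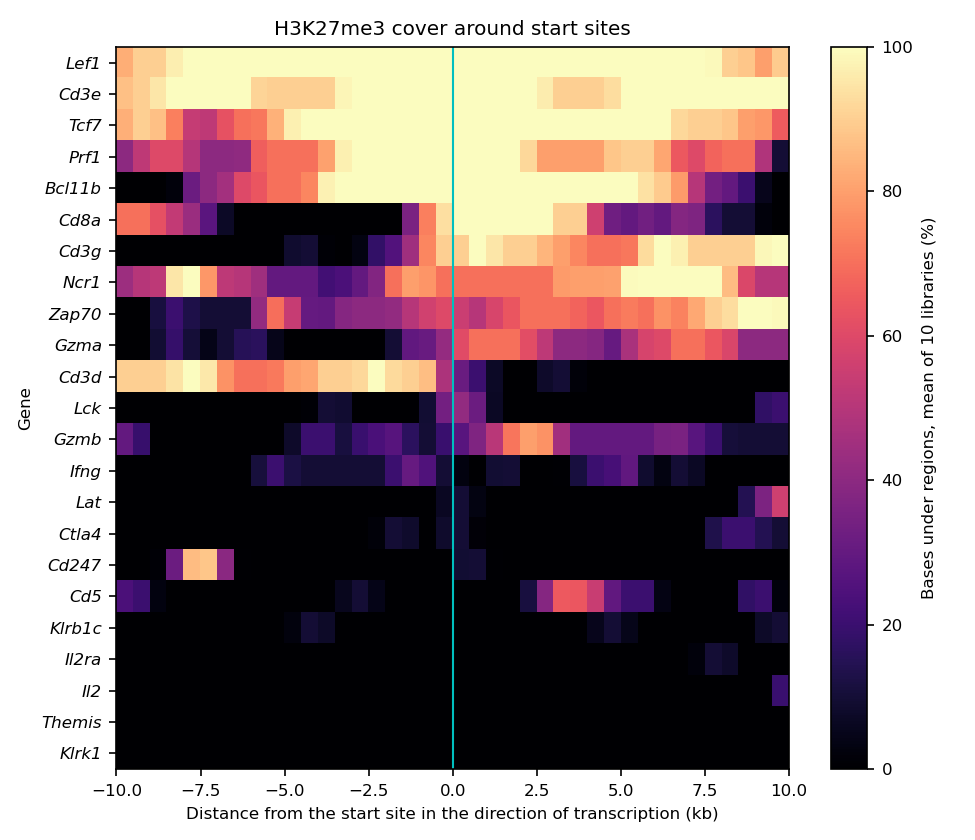
Percent of bases under regions, mean of the 10 libraries (colour, 0% to 100%), for the 23 members with a RefSeq promoter (rows). Distance is in kb from the first listed RefSeq start along the direction of transcription. Lef1, Cd3e, Tcf7, Prf1 and Bcl11b are at 100% around the start, whereas Klrk1 and Themis are at 0% throughout.

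The start of Ncr1 was fully covered in 7 of 8 stimulated libraries, at 19.6% in the eighth, KO M2 replicate 2, and at 0% in both M0 libraries. Each of the 3 listed starts of Zap70 was fully covered in both KO M2 and both M0 libraries. The first listed was at 0% and 82.5% in WT M2, 50.0% and 0% in KO M1, and 0% and 21.1% in WT M1. The second was at 0% and 100% in WT M2, 0% and 100% in KO M1, and 0% and 95.5% in WT M1. The third was at 0% in all WT M2 and KO M1 libraries, and at 16.5% and 0% in WT M1. Lck was touched at the first of its 2 listed starts in both KO M2 libraries, 1 of 2 WT M2 libraries, none of 4 M1 libraries and both M0 libraries. Its second listed start was touched only in KO M2 replicate 2 and KO M0. CG content varied among the marked starts. Tcf7 held 45 CG dinucleotides, a count that 2.38% of promoters reach, whereas Lef1 held 18, Bcl11b 9 and Ncr1 0. The median was 4 among the 23 members and 13 among all 17492 promoters, and it was 13 over genes covered in all libraries and 11 over genes free in all.

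Between M2 and M1 no member was separated by percent cover, meaning every M2 library above, or every one below, every M1 library. The count was 0 of 28 in either direction, against 1.04% of 11759 genes higher and 2.04% lower. The lowest p among the members were those of Ncr1, at 68.3% ± 17.98 over the 4 M2 libraries and 93.0% ± 8.62 over the 4 M1 libraries (SD; exact two-sided permutation p = 0.0571), and Il2ra, at 11.4% ± 9.10 in M2 against 24.9% ± 6.31 in M1 (SD; exact p = 0.0857). Lck averaged 18.9% ± 6.94 in M2 against 10.8% ± 2.62 in M1 (SD, 4 libraries each; exact p = 0.114). The smallest exact p that 4 libraries against 4 allow is 0.0286, and no gene passed after adjustment over 11759 genes (smallest adjusted p = 0.880). With WT M2 replicate 1 left out, 5 members were separated as higher in M2 (Lck, Zap70, Lat, Cd2 and Lef1), and so were 12.4% of all genes.

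Tag density was compared with limma, across all genes. Of the 31 members, 25 passed a filter of 1 tag per 10 megatags and per kb on average; Themis, Cd28, Klrk1, Klrb1c, Ctla4 and Il2 were below it. Between M2 and M1, limma called 1 of 7756 genes (0.0129%), Nos2, the inducible nitric oxide synthase, and no member (4 members and 1261 genes had an unadjusted p under 0.05). Lck was at 4.84 and 5.50 tags per 10 megatags and per kb in KO M2, 1.38 and 3.76 in WT M2, 1.93 and 1.51 in KO M1 and 2.03 and 1.34 in WT M1. Its log2 difference between M2 and M1 was 0.76 ± 0.28 (SE; limma adjusted p = 0.284). Bcl11b had 0.56 ± 0.19, Ncr1 had -0.56 ± 0.21 and Il2ra had -0.90 ± 0.32 on the same scale (SE; limma adjusted p = 0.284 for each). The median log2 difference was 0.03 over the 25 members and 0.24 over all genes tested; with each library centred on its median, it was -0.19 over the members and 0.01 over all genes. The differences between M2 and M1 were above 0 for 14 of 25 members and 75.9% of genes before centring and for 8 members and 51.2% of genes after it.

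**Figure D3:**
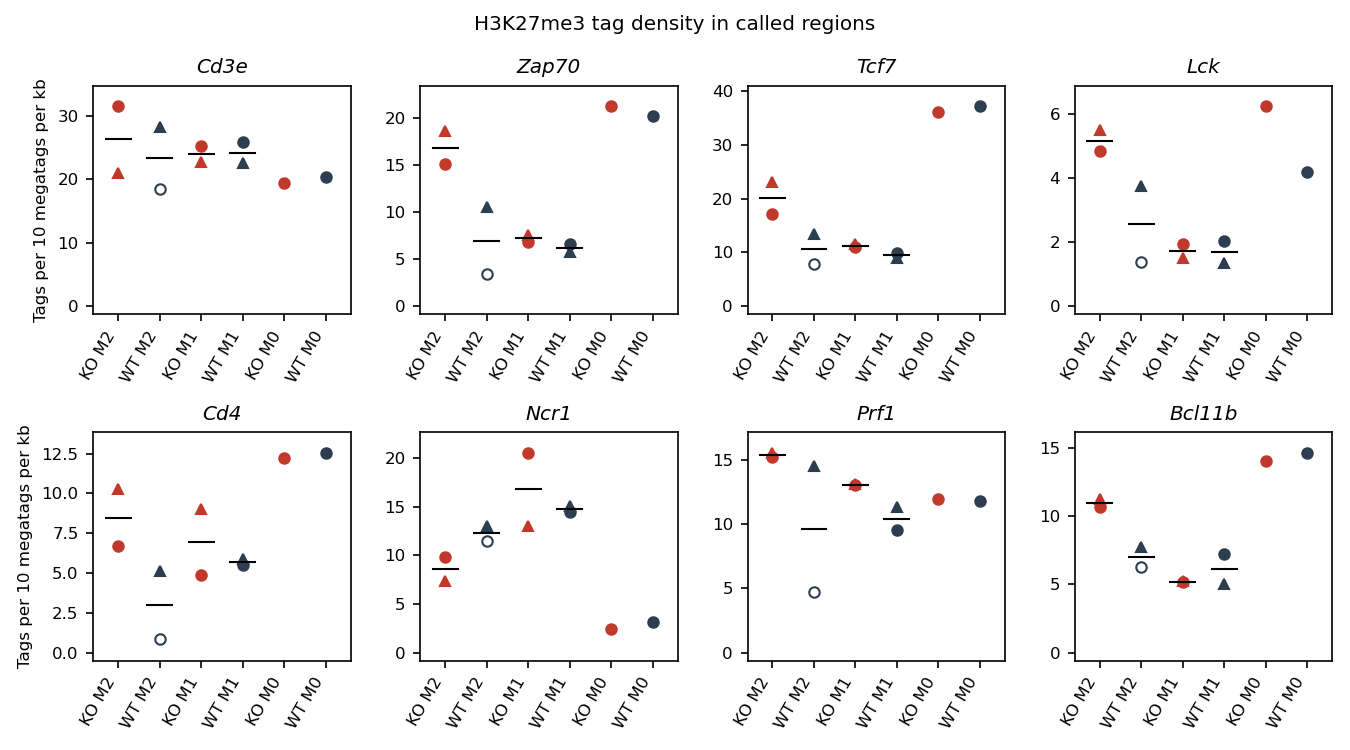
Normalised tags in regions per 10 megatags and per kb of window for single members, by state and genotype (KO red, WT dark). Circles are replicate 1, triangles replicate 2, the open circle is WT M2 replicate 1, and bars give the mean of 2 libraries. Zap70, Tcf7, Cd4 and Bcl11b are highest in the M0 libraries, and Ncr1 is lowest there.

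The M2 against M1 counts changed with 1 library. Without WT M2 replicate 1, limma called 2719 genes, 2624 of them higher in M2 (34.4% of those tested), and 7 of 26 members, all higher (Bcl11b, Cd2, Cd247, Lat, Lck, Tcf7 and Zap70). With that library left out and the others centred on their medians, Nos2 was again the only gene called. Zap70 had 3.44 to 18.6 tags per 10 megatags and per kb in the stimulated libraries, against 21.3 in KO M0 and 20.3 in WT M0. Tcf7 had 7.76 to 23.1 in the stimulated libraries, against 36.2 in KO M0 and 37.3 in WT M0. Ncr1 had 7.36 to 20.6 in the stimulated libraries, against 2.39 in KO M0 and 3.15 in WT M0. For these 3 members, chosen after their values were seen, the M0 tag densities lay outside the range of the 8 stimulated libraries. Both M0 values were also above that range for Cd4, Cd5, Cd6, Cd7, Lef1 and Bcl11b, and below it for Cd3g, Icos and Gzmb. The matching share of all genes was not computed, and no test was made.

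Between genotypes, the KO minus WT difference in cover, averaged over the 3 states, was above 0 for 21 of 28 members and 63.2% of 12294 genes. Its median was 4.11 percentage points over the members and 0.568 points over the genes. Zap70 (15.8 points) and Cd6 (7.53 points) had the smallest p that exchanging labels within states allows (exact two-sided permutation p = 0.0278; 2 of 28 members, or 7.14%, against 4.23% of genes). Pooled over the states, Zap70 averaged 67.3% ± 21.1 in KO and 48.9% ± 21.6 in WT (SD, n = 5 each) and Cd6 15.9% ± 6.73 in KO and 7.16% ± 9.07 in WT (SD, n = 5 each). These SDs include differences between states, and the pooled means weight states by their libraries, unlike the differences above. After adjustment over all genes the exact permutation p was 0.657 for both genes, so neither gene passed. Leaving out single libraries moved the Zap70 difference between 9.97 points, without WT M2 replicate 1, and 22.3 points, without an M0 library. The Cd6 difference moved between 5.58 and 10.4 points. With the upper 50% of regions by score the Cd6 difference was -2.14 points.

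Genotypes were then compared within each stimulated state. Both KO M2 libraries were above both WT M2 libraries in 10 of 28 members (35.7%, against 26.8% of genes), namely Cd247, Cd4, Cd8a, Lck, Zap70, Cd5, Cd6, Tcf7, Lef1 and Bcl11b. They were below in Icos, Ncr1 and Gzmb (3 of 28, or 10.7%, against 10.8% of genes). In M1 both KO libraries were above both WT libraries for Cd247, Zap70, Lat and Cd6 (4 of 28, or 14.3%, against 15.2% of genes) and below for Cd3e and Cd3g (2 of 28, or 7.14%, against 8.19% of genes). With 2 libraries a group, the counts in M1 and the lower counts in M2 were near those of all genes. Gzmb had 27.9% and 17.2% in KO M2 and 54.6% and 46.2% in WT M2. Its direction turned with the window: over the gene body alone, the KO minus WT difference in cover over the states was 16.6 points, against -5.68 points with the flanks, and the log2 difference in tag density in M2 was 0.64, against -0.62.

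In tag density, limma called 0% of 7756 genes between KO and WT in M2 (2102 had an unadjusted p under 0.05), 0% over M2 and M1 together (871 genes) and 0% in M1 (41 genes). Zap70 was at 15.1 and 18.6 tags per 10 megatags and per kb in KO M2, against 3.44 and 10.5 in WT M2, and at 6.84 and 7.55 in KO M1, against 6.56 and 5.72 in WT M1. Its log2 difference between KO and WT in M2 was 1.31 ± 0.43 (SE; limma adjusted p = 0.182). Cd4 had 1.46 ± 0.55, Cd6 had 1.29 ± 0.53 and Tcf7 had 0.90 ± 0.31 (SE; limma adjusted p = 0.182 for each). The members that passed the filter had a median log2 difference of 0.74 in M2 and 0.11 in M1, against 0.54 and 0.06 over all genes. Without WT M2 replicate 1 the M2 median was 0.08 over the members and 0.22 over all genes, and 16 of 26 members were above 0. Centring the libraries brought the M2 medians to 0.31 for the members and 0.11 for all genes, and Zap70 to 0.89. The differences in M2 were above 0 for 22 of 25 members and 81.8% of genes before centring and for 18 members and 60.4% of genes after it, with Cd3d, Cd3e, Cd3g and Ikzf3 changing sign. The difference between the genotype effects in M2 and in M1 passed for no gene (limma, 311 genes with an unadjusted p under 0.05), and for Zap70 it was 1.11 ± 0.61 on the log2 scale (SE; limma adjusted p = 0.594).

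**Figure D4:**
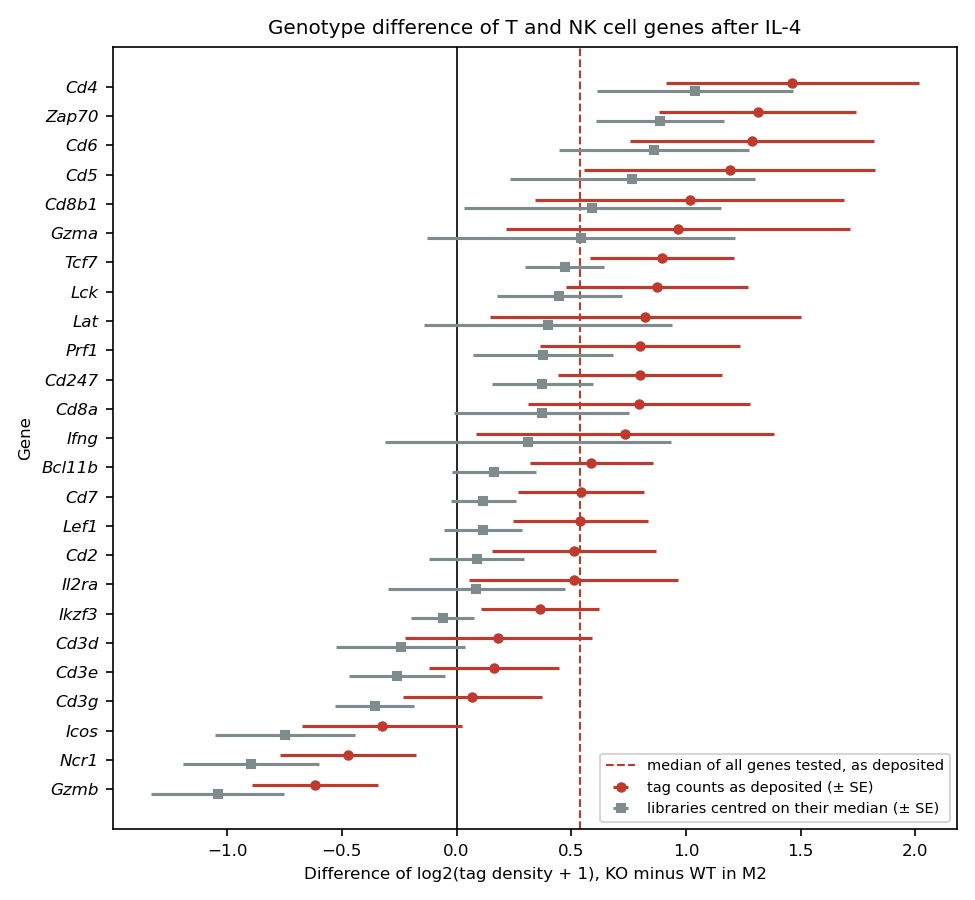
Difference of log2(tag density + 1) between KO and WT in M2 for the 25 members that passed the filter, 1 row a gene, with SE bars; red circles are deposited tag counts, grey squares are libraries centred on their medians, and the dashed line is the median of all genes tested before centring. Cd4 and Zap70 lie at 1.46 and 1.31 before centring, and Gzmb, Ncr1 and Icos lie below 0 on both scales, Gzmb with the flanks only.

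The M2 genotype counts changed with which WT M2 library was kept. Without WT M2 replicate 2, which leaves replicate 1 as the lone WT M2 library and assumes that it varies like the other groups, limma called 4569 genes in M2. Of those tested, 54.8% were higher and 4.5% lower in KO, and 18 of 25 members were called higher and Gzmb lower. With the libraries also centred, Zap70 and Cd4 were called higher and Gzmb lower, as were 5.02% and 1.7% of genes. Without WT M2 replicate 1 no gene was called, and the log2 difference was 0.63 for Zap70 and 0.53 for Tcf7 (limma adjusted p = 0.503 for each), 0.60 for Cd4 (limma adjusted p = 0.539) and 0.84 for Cd6 (limma adjusted p = 0.510). The share of tags in regions moved with this comparison, at 61.0% and 61.3% in KO M2 and 41.3% and 56.5% in WT M2, and its part in the result was not tested.

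The authors' deposited tables of regions that differ between genotypes touch the windows of 2 members. Regions enriched in KO number 1049 for M2 and 93 for M1. The share of all genes touched was not computed, so the count of 2 cannot be set against it. In the authors' deposited table for M2, a region enriched in KO lies within the body of Lck (chromosome 4, 129563585 to 129563985), with a log2 fold of 1.39, p = 0.00854 and a false discovery rate (FDR) of 0.200. In the authors' deposited table for M1, a region enriched in KO lies in the flank of Il2ra (chromosome 2, 11695122 to 11695522), with a log2 fold of 1.57, p = 0.00601 and an FDR of 1.00. Called regions overlapped the Lck stretch in both KO M2 libraries and no other, and the Il2ra stretch in both KO M1 libraries and no other.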

How the data were processed

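H3K27me3 ChIP-seq libraries of KO and WT macrophages (10 in all) were used as 10 deposited lists of regions. Per the submitters' processing notes, mm10 was the assembly, and the tools named are HOMER 4.8, DiffBind 2.0.2, Bowtie2 2.4.2, SAMtools 1.10 and deepTools 3.5.1. Per the file headers, regions were called in each library in windows of 1000 bp joined over gaps of 2500 bp, at an FDR of 0.001. The signal is the authors' normalised tag count per region, scaled to 10 megatags (1 megatag is 1000000 tags), and the region score is the authors' score, which served only for ranking regions of the same library. Per the file headers, the tag threshold of a region followed depth, from 12.9 to 15.9 tags per 10 megatags, so shallow libraries need more. The authors' deposited tables of differing regions give a log2 fold and a p-value per region; replicate values behind them were not used here.

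Gene bodies came from RefSeq (GRCm38.p6). Cover and tag density were computed in Python 3.11.15 with numpy 2.4.6 and pandas 2.3.3. Exact permutation tests (scipy 1.17.1) compared percent cover. Tag density was tested as log2(density + 1), a scale that understates changes of low genes, with limma 3.58.1 in R 4.3.3, over genes averaging at least 1 tag per 10 megatags and per kb in the 8 stimulated libraries; all p-values were adjusted by Benjamini-Hochberg over all genes tested, at 0.05. Both procedures were first tested on simulated data. The figures used matplotlib 3.10.9. If replicates share animals, the p-values measure only technical spread.

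All 31 members are named; of the other gene lists, those covered in every library are named, apart from items not reported here. The members and lists were chosen with earlier results of these data known. Windows of 10 members hold part of another protein-coding gene, and those of Cd3d and Cd3g share sequence. Replicate numbers paired M2 with M1 libraries of a genotype: deviations from group means correlated at 0.732 in WT and 0.174 in KO over 7756 genes, and why is not given in the labels. Alternatives were the gene body alone, other thresholds, pseudocounts of 0.1 and 10, no filter, centring, a replicate block and leaving out libraries.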

Additional observations from a re-analysis of the deposited data

Results flagged for a closer look

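Percent cover of each member was examined within the 4 M2 and the 4 M1 libraries for a single library far from the other 3. Of 56 such groups, 6 had one, and the matching share over all genes was not computed. Chance gives about 1 in 20 groups for values that vary freely, a rate that does not apply to Cd7 and Il2, where the other 3 values are tied at a bound. Cd7 was at 84.1% in WT M2 replicate 1 and at 82.2% in KO M1 replicate 1, with the other libraries of each state at 100%. Il2 was at 4.796% in WT M2 replicate 2 and at 4.86% in KO M1 replicate 1, with the other libraries of each state at 0%. Lef1 was at 17.4% in KO M1 replicate 1, below the other M1 libraries, and Bcl11b was at 25.8% in WT M1 replicate 1, above them.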

How the results depend on the processing

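The 3 members covered in all 10 libraries became 7 at a threshold of 25% of the window and 0 with the upper 50% of regions by score. The matching shares of all genes were not computed. Members separated between M2 and M1 numbered 0, and 0 to 5 when single libraries were left out. Genes called between M2 and M1 (1) became 0 with a pseudocount of 0.1, 0 with no filter, 3 with centring, 9 over the gene body, 2446 without both WT replicate 1 libraries, and 0 to 2719 without single libraries. Genes called between KO and WT (0) became 1 over the gene body and 0 to 3854 without single libraries. In M2 (0) they became 76 with no filter, 5 over the gene body, 518 without WT M2 replicate 2 and with centring, an alternative chosen after seeing the data, and 0 to 4569 without single libraries; in M1 (0) they became 3 over the gene body. The interaction (0) gave 0 to 1967 without single libraries. The high counts came from leaving out a WT M2 library, and the cause of the others was not tested. Single members' differences that passed no threshold changed sign in places: in cover, 254 of 305 values for M2 against M1 and 327 of 362 for KO against WT kept their sign, and in tag density 316, 330, 334 (KO against WT in M2) and 319 (in M1) of 348 did. The mean within-state difference in covered members, KO minus WT, was 0.83, and it was -0.17 without WT M2 replicate 1 and -0.33 without both WT replicate 1 libraries. In tag density no member passed with all libraries. Leaving out a WT M2 library leaves 1 in that group, so medians are given here. Without WT M2 replicate 1 the median log2 difference between M2 and M1 was 0.26 over the members and 0.40 over all genes. Without WT M2 replicate 2 the KO minus WT median was 0.66 over the members and 0.46 over all genes. In M2 alone it was then 1.26 over the members and 0.85 over all genes.

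With a replicate block, M2 against M1 gave 1 call and KO against WT gave 0, as without it. Same-numbered KO and WT libraries correlated at 0.0661 in M2 and 0.0470 in M1. Whether they share more than a number is not given in the labels, and correlations from 2 libraries a group cannot decide it. The block changed no call in tag density. With 2 libraries a group and 1 in M0, only large differences could pass, and cover depends on each library's own threshold of tags per region.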
